A study of Mus musculus with 25 samples.

Results

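The genes of interferon signalling, antigen presentation and cytokine signalling were examined in neurons sorted from the mouse sensorimotor cortex. Members were chosen by gene symbol alone: those of the H2 complex, *B2m* and *Cd74*, interferon-induced genes (Ifi, Ifit, Isg), interferons and their receptors, Irf genes, chemokines and chemokine receptors, interleukins and interleukin receptors, and the Tnf, Toll-like receptor and NF-κB families, leaving out *Il6st*. This gave 161 of the 9931 genes with a symbol, in 13 role classes. The rule itself used no measured value, although earlier results of these data were known when genes and lists were chosen. All mice were C57BL/6 by label, 4 to 6 weeks old and of both sexes, with REST flx/flx alleles and the Cre-dependent reporter STOP flx/flx TdTomato. Wild-type (WT) neurons had received AAV-Syn-GFP and were sorted for GFP, and REST cKO neurons had received AAV-Syn-Cre, which deletes *Rest* in infected neurons, and were sorted for tdTomato, so that virus, reporter and genotype cannot be told apart. Both viruses used a synapsin promoter, which is active in neurons. Mice had a sham operation or a complete crush of the spinal cord (spinal cord injury, SCI) at thoracic level T10. There were 8 groups. WT had 4 sham libraries and 3 libraries for each of days 1, 3 and 7 after SCI, and REST cKO had 3 sham libraries, 2 for day 1, 4 for day 3 and 3 for day 7.

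Interferons bind receptors on almost every cell and act through JAK and STAT proteins and interferon regulatory factors (IRFs) to switch on genes that block viruses and present antigen. Major histocompatibility complex (MHC) class I molecules, which need β2-microglobulin, show peptides from inside the cell and are made by most nucleated cells, whereas class II molecules are normally made by professional antigen-presenting cells. In the brain, microglia and macrophages are the main source of class II molecules, Toll-like receptors and many cytokines, and healthy neurons make little class I and almost no class II.

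Each library came from RNA of about 1000 sorted cells and was made with a 3′ mRNA-seq kit. The values were log2 normalized counts from -4.82 to 5.16. Their base was read from an axis of the study, and the range is narrow, the highest gene mean lying 4.33 above the median gene mean, so differences are given in the units of the table and not as folds. The share of values under -2 was 29.5% in WT day 3 replicate 5 and otherwise at most 17% per library. Microglial markers were abundant in these sorted neurons. Of 19 microglial and macrophage markers, 16 were among the 1000 highest genes, and *Ctss* ranked 3 and *Cx3cr1* 69. Of 11 neuronal markers 2 did so, *Syt1* at rank 218 and *Snap25* at rank 368, while *Rbfox3* ranked 2458. Of 12 endothelial markers 5 were among the 1000 highest, led by *Flt1* at rank 101 and *Ly6c1* at rank 161. Of 15 blood leukocyte markers 9 were measured, led by *Lyz2* at rank 48 and *Ly6c2* at rank 140, and the B cell marker *Ms4a1* ranked 9835. *Rest* itself ranged from -1.55 to -0.26 in WT sham and from -2.65 to -0.52 in REST cKO sham, with overlap (difference -1.47, standard error 0.991). At day 7 it ranged from 0.26 to 2.74 in WT and from -1.21 to -0.33 in REST cKO, without overlap (difference -2.28, standard error 0.921, adjusted p = 0.401). Whether the 3′ reads lie in the deleted part of *Rest* is not given in the sources used here, and the values of *Rest* correlate with a sequencing component although these components had been regressed out.

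Antigen presentation genes were among the most abundant transcripts of these libraries, in sham and injured groups alike. Of the 161 genes, 6 were among the 100 highest of all 9931 and 28 (17.4%) among the 1000 highest, a rank that 10.1% of all genes reach by definition. The median gene mean was 0.97 for the 161 genes and 0.64 for all genes, while 41 of the 161 had a mean below 0, as did 30.5% of all genes. These are levels per gene and not per length, read from the 3′ end of transcripts. *B2m*, the light chain of MHC class I, ranked 14 with a mean of 3.86. The classical class I heavy chains *H2-K1* and *H2-D1* followed at ranks 24 and 35. Class II genes stood almost as high, with the α chain *H2-Aa* at rank 53, the β chains *H2-Ab1* and *H2-Eb1* at ranks 78 and 134, and the invariant chain *Cd74* at rank 507. The median of gene means was 2.20 over the 9 class II genes and 1.74 over the 13 class I genes, against -0.51 over the 7 chemokine receptors.

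**Figure D1:**
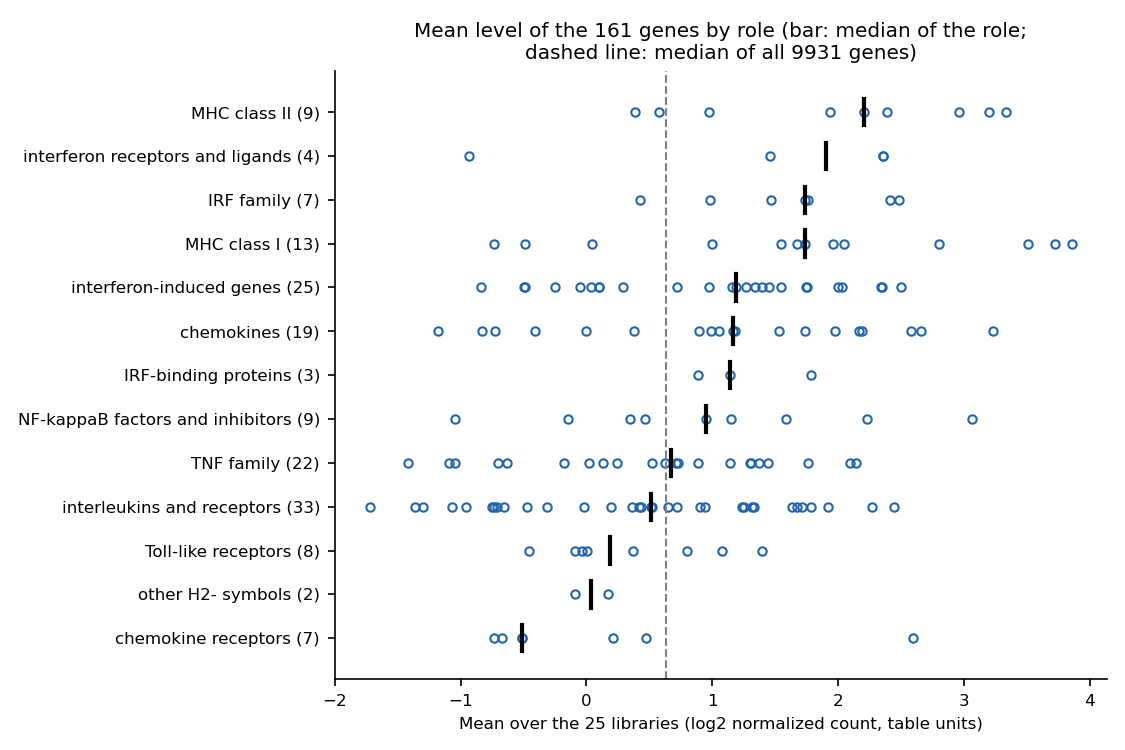
Mean log2 normalized count over 25 libraries (x axis, units of the table) of the 161 genes, one row for each role with its number of genes. Circles are genes, black bars the median of the role and the dashed line the median of all genes at 0.64. Class II genes have the highest median at 2.20 and chemokine receptors the lowest at -0.51.

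Among the chemokines, *Ccl5*, which attracts T cells and monocytes, was highest with a mean of 3.23 (rank 67). *Cxcl9* and *Cxcl10*, the interferon-γ-induced ligands of CXCR3, ranked 289 and 344. *Ccr10*, a chemokine receptor, ranked 5471. The interferon receptor chains *Ifnar2* (type I) and *Ifngr1* (type II) had means of 2.36 and 2.35, and *Ifnar1*, the partner of *Ifnar2*, had -0.93. *Ifi30*, a thiol reductase that unfolds antigens in the lysosome, led the interferon-induced genes at 2.50 before *Ifi27* at 2.35. *Irf8*, the IRF that microglia need for their development, led its family at 2.48, followed by *Irf1* at 2.41. *Nfkbia*, the NF-κB inhibitor that NF-κB itself induces, had 3.06 (rank 104) and *Nfkb1* had 2.23. Lower classes were led by the receptor chains *Il10rb* (2.45) and *Il6ra* (2.27), by *Tnfaip1* (2.14) and the TNF receptor *Tnfrsf1a* (2.10), and by *Tlr2* (1.39) and *Tlr12* (1.08). The IRF2-binding proteins *Irf2bpl* and *Irf2bp2* had 1.78 and 1.14, and the remaining H2 symbols *H2-M5* and *H2-Ke6* had 0.17 and -0.09.

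The most abundant genes varied little between libraries. *B2m* was 4.04, 3.70, 3.70 and 3.60 in the WT sham libraries, 3.94, 3.64 and 3.77 at day 1, 3.88, 3.95 and 4.27 at day 3 and 3.81, 4.13 and 3.74 at day 7. In REST cKO it was 3.36, 4.08 and 3.57 in sham, 4.19 and 3.70 at day 1, 3.93, 4.26, 3.96 and 3.94 at day 3 and 3.91, 3.46 and 3.90 at day 7. The ranges of all injured groups overlapped those of their sham groups. *H2-K1* ranged from 3.72 to 3.79 in WT sham and from 3.37 to 3.83 in REST cKO sham, and *H2-D1* from 3.40 to 3.64 and from 3.18 to 3.59. *Ccl5* ranged from 2.82 to 3.53 in WT sham and from 2.93 to 3.26 in REST cKO sham, and lay between 2.74 and 3.71 in all injured libraries. Neither injury nor genotype moved these 4 genes past the threshold.

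**Figure D2:**
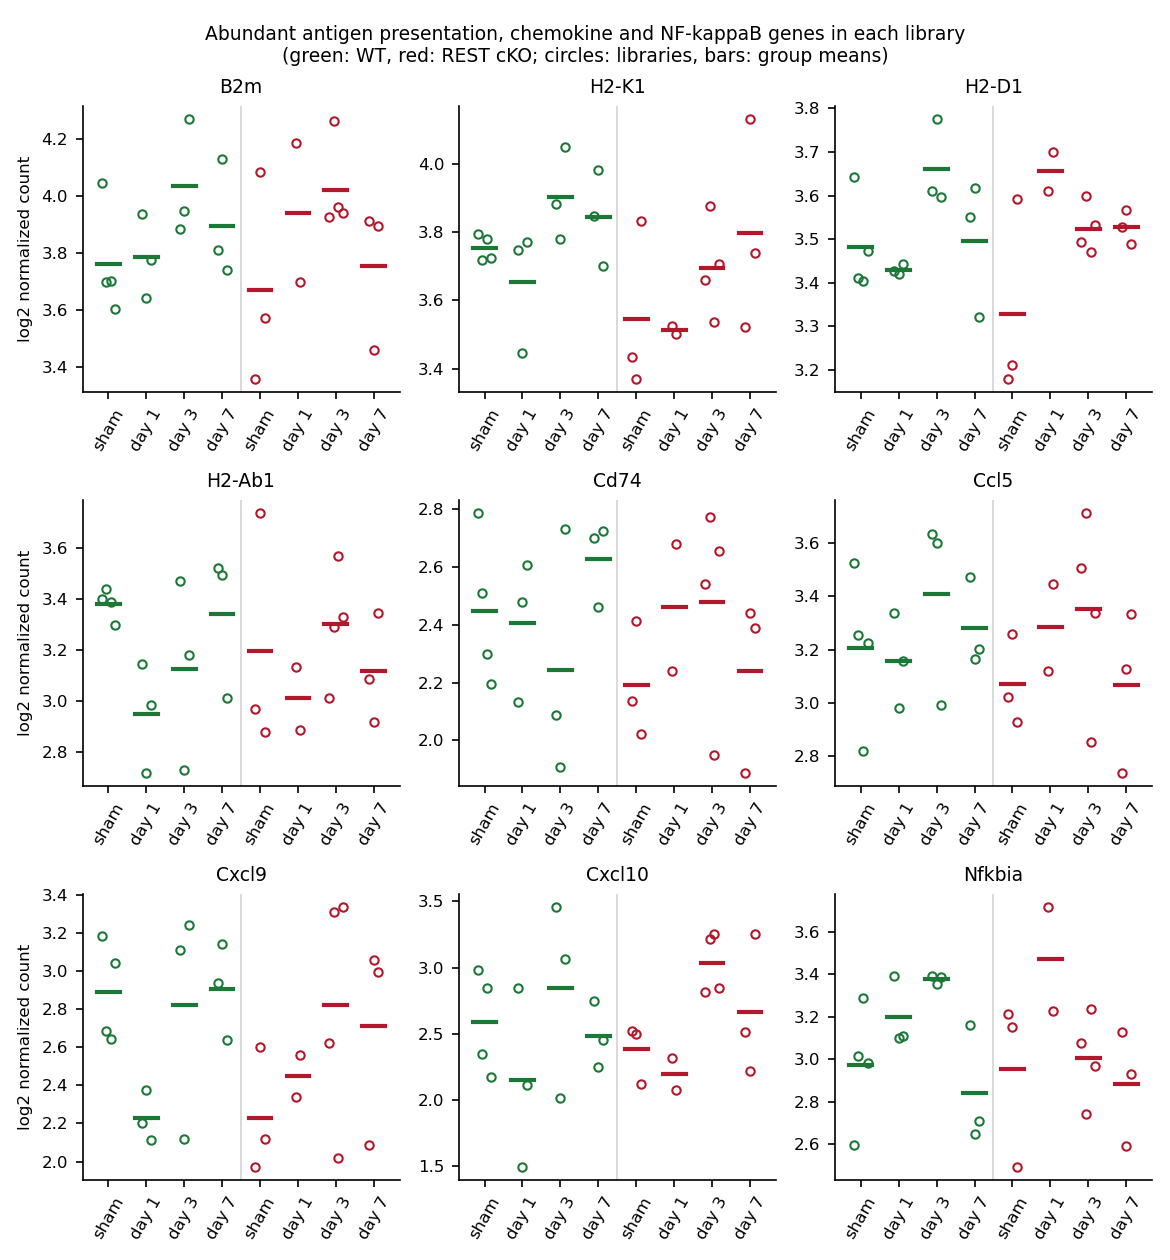
Log2 normalized counts (y axes, a separate range for each gene) of 9 abundant genes in the 8 groups (x axis). Circles are libraries, green for WT and red for REST cKO, and bars are group means. *Cxcl9* and *H2-Ab1* were lower in all 3 WT day 1 libraries than in all 4 WT sham libraries, and *B2m* and *Ccl5* overlapped between each injured group and its sham group.

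The spread between libraries depended on the level of the gene. The standard deviation within groups had a median of 0.234 over the 7 members with a mean of 3 and over, and of 1.44 over the 41 with a mean under 0. For all 9931 genes the medians were 0.213 and 1.46 at these levels, so members varied as other genes of their level did. A median standard error of 0.81 for a difference at WT day 1 means that only genes of high level could show small differences here.

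**Figure D3:**
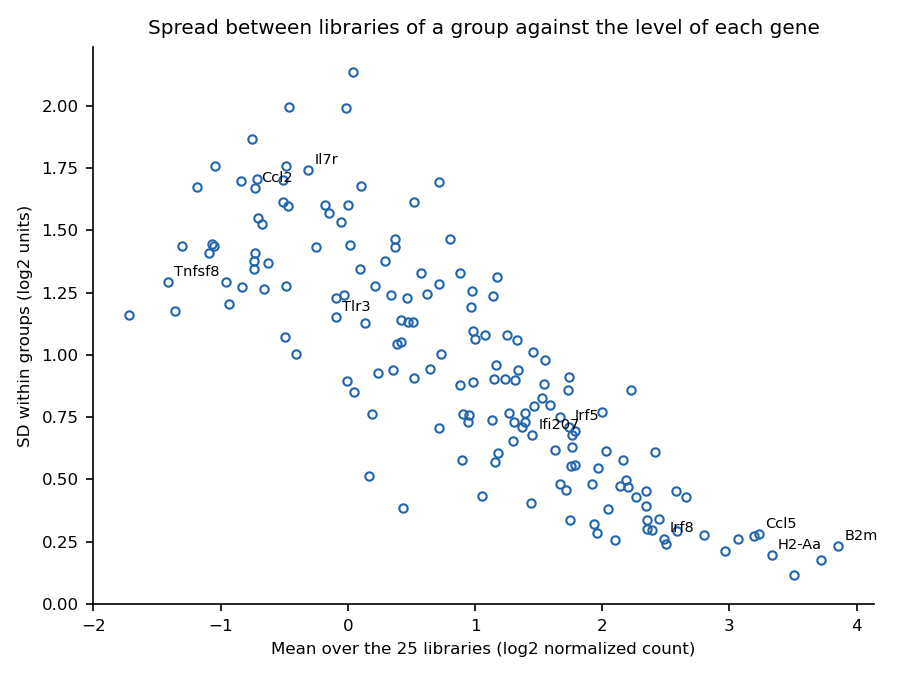
Standard deviation between libraries of the same group (y axis, log2 units, pooled over groups) against the mean over 25 libraries (x axis, log2 normalized count) for each of the 161 genes. The spread falls with the level, from a median of 1.44 in genes with a mean under 0 to 0.234 in the 7 genes with a mean of 3 and over.

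The study asked how neurons respond to SCI and how the loss of REST changes that response. For these genes, 0 of 161 passed an adjusted p-value of 0.1 (limma, Benjamini-Hochberg over 9931 genes) in any of 14 tests. Among all genes the shares that passed were 0.0101% at WT day 3 and in the test across any of the 8 groups, 0.0201% at REST cKO day 3 and in the interaction at day 7, 0.0302% between the genotypes in sham, and 0% elsewhere. The counts below are therefore at an unadjusted p-value under 0.05, which about 5% of genes would meet without any difference. Most single genes given are those with the smallest p-values of all members. Others are given for their level or because another comparison named them. For single genes, overlap between libraries is descriptive. Its share over all genes was counted only at WT day 1 and between genotypes in sham. In the test across the 8 groups, 11 members had such a p-value (6.83%), below the 8.5% of all genes.

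At day 1 after SCI, WT neurons had lower values than WT sham in 14 members and higher values in 0, at an unadjusted p-value under 0.05. Among all genes 2.52% were lower and 3.92% higher, so that 8.7% of the members stood against 2.52%. The median difference was -0.35 over the 161 members and 0.12 over all genes, and 112 members had a negative difference. Without overlap between the libraries, 10 members were lower (6.21%, against 2.68% of all genes) and 0 higher (against 4.34%). All 9 class II genes had negative differences, as did 20 of 25 interferon-induced genes, 14 of 19 chemokines, 6 of 7 IRF genes, 10 of 13 class I genes, 22 of 33 interleukin genes, 13 of 22 TNF genes, 7 of 9 NF-κB genes and 5 of 8 Toll-like receptors. Differences were positive for 4 of 7 chemokine receptors, 2 of 4 interferon receptor genes, 1 of 2 other H2 symbols and 3 of 3 IRF-binding proteins, and for 55.9% of all genes. The microglial markers moved the same way: all 19 had negative differences, and their mean, 2.88 to 3.05 in the sham libraries, was 2.34 to 2.70 at day 1. All 9 oligodendrocyte markers, all 6 astrocyte markers, 10 of 11 neuronal markers and 7 of 12 endothelial markers had positive differences. With a term for the mean of the microglial markers, an alternative chosen after seeing the data, the median difference was -0.02 over the members and 0.09 over all genes. In that fit 1 member was higher and 2 lower at an unadjusted p-value under 0.05, against 4.44% of all genes in either direction. The marker mean did not overlap between these groups, so this fit cannot tell the term and the group apart.

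*Ccl12*, a monocyte-attracting chemokine, had the smallest p-value at WT day 1. It was 1.22, 0.34 and 1.37 at day 1 and 2.88, 2.08, 1.30 and 2.44 in sham, so that 1 sham library lay within the day 1 range. The difference was -1.39 (standard error 0.452, adjusted p = 0.585), and -0.69 with the microglial term. *Cxcl13*, which attracts B cells, was 0.68, 0.06 and 1.38 at day 1 and 3.06, 1.99, 0.72 and 3.12 in sham, with overlap, and the difference was -1.83 (standard error 0.641, adjusted p = 0.636), or -1.01 with the microglial term. *Ifi213*, of the PYHIN family of DNA-binding interferon-induced proteins, was 0.85, 0.10 and 0.72 at day 1 and 1.81, 2.60, 2.48 and 1.82 in sham. All its day 1 libraries lay below all sham libraries (difference -1.78, standard error 0.625, adjusted p = 0.636). *Il17ra*, the interleukin-17 receptor, was 1.14, 1.50 and 1.21 at day 1 and 2.47, 2.19, 1.99 and 2.69 in sham, also without overlap. Its difference was -1.22 (standard error 0.447, adjusted p = 0.636), and -1.94 with the microglial term. *Ifi207*, another PYHIN gene, was 1.75, -0.64 and 0.38 at day 1 and 2.40, 1.74, 1.07 and 2.33 in sham, with overlap, and the difference was -1.54 (standard error 0.584, adjusted p = 0.656). It was -0.63 without WT day 1 replicate 8, the lowest library of that group, and -0.49 with the microglial term. The differences of *Ccl12* and *Cxcl13* were -1.70 and -2.16 within batch 1 but -0.50 and -0.54 within batch 2, which holds 1 day 1 library, while those of *Ifi213*, *Il17ra* and *Ifi207* lay between -1.73 and -1.01 in both batches. The PYHIN genes form a cluster on chromosome 1, 10 of them among the members, and share sequence, so how reads were divided between them is uncertain. *H2-Ab1* was 3.15, 2.72 and 2.98 at day 1 and between 3.30 and 3.44 in sham (difference -0.50, standard error 0.219, adjusted p = 0.717). *Cxcl9* was 2.20, 2.37 and 2.11 at day 1 and between 2.64 and 3.18 in sham (difference -0.75, standard error 0.335, adjusted p = 0.726). These last 2 did not have the smallest p-values and are given because they are among the highest genes of their classes. *H2-Aa* (difference -0.34, standard error 0.167) and *Ccl5* (difference -0.09, standard error 0.225) stand higher still in these classes, and both of them overlapped with sham.

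At day 3 in WT neurons, 4 members were higher and 11 lower at an unadjusted p-value under 0.05 (3.64% and 3.26% of all genes), and the median difference was -0.07. *Cxcr4*, the receptor of CXCL12, was -2.84, -2.35 and -2.25 at day 3 and 1.88, 1.52, -2.38 and 0.17 in sham (difference -3.89, standard error 1.29, adjusted p = 0.603). One sham library lay among those of day 3. *Tnfsf8*, the CD30 ligand, was -2.40, -3.14 and -0.10 at day 3 and between -1.0 and 1.77 in sham, with overlap (difference -3.27, standard error 1.16, adjusted p = 0.629). *Tlr6*, which senses bacterial lipopeptides together with TLR2, was 2.16, 1.86 and 1.78 at day 3 and 1.89, -3.02, -2.18 and 0.26 in sham, with overlap (difference 3.21, standard error 1.16). *Il18*, an inflammasome-processed cytokine, was 2.70, 2.25 and 2.71 at day 3 and 1.82, 0.85, -0.64 and -1.34 in sham. All its day 3 libraries lay above all sham libraries (difference 2.45, standard error 0.914, adjusted p = 0.629). *Ccl22*, a ligand of CCR4, had a difference of -3.07 (standard error 1.15). Within batches 1 and 2 the difference was -4.54 and -1.24 for *Cxcr4*, 1.36 and 3.24 for *Il18* and -3.42 and -1.18 for *Ccl22*, with 1 day 3 library in each batch. The values of *Cxcr4*, *Tlr6* and *Il18* correlate with a sequencing component (up to 0.0948, 0.163 and 0.243), although the components had been regressed out of the table.

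At day 7 in WT neurons, 3 members were higher and 10 lower (2.16% and 4.72% of all genes), with a median difference of -0.05 over the members and -0.12 over all genes. *Tnfrsf13c*, the receptor for the B cell survival factor BAFF, was -3.04, -3.21 and -1.40 at day 7 and 1.71, 1.66, 0.75 and 0.26 in sham (difference -4.14, standard error 1.11, adjusted p = 0.352). *Tnfsf8* was -2.93, -3.27 and -2.69 at day 7, below all 4 sham libraries (difference -3.85, standard error 1.05, adjusted p = 0.363). *Il1a*, an alarm cytokine of the interleukin-1 family, was -0.46, -0.06 and -0.82 at day 7 and 1.56, 1.83, 2.01 and 1.25 in sham. These 3 genes were lower in all day 7 libraries than in all sham libraries (for *Il1a*, difference -2.21, standard error 0.703, adjusted p = 0.443). *Isg20l2*, which encodes a nucleolar exonuclease and is interferon-related by symbol only, had a difference of -3.14 (standard error 1.02), and its libraries overlapped. *H2-T10*, a nonclassical class I gene that GENCODE lists as a polymorphic pseudogene, was -3.07, -0.03 and -2.30 at day 7 and 0.26, 0.94, 0.33 and 0.93 in sham (difference -2.49, standard error 0.885, adjusted p = 0.525). Within batches 1 and 2 the differences were -4.81 and -1.91 for *Tnfrsf13c*, -4.67 and -1.91 for *Tnfsf8* and -4.28 and -1.11 for *Isg20l2*. All 3 WT libraries at day 7 are labelled female, as are 2 of the 4 WT sham libraries.

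In sham mice, REST cKO neurons had lower values than WT neurons in 10 members and higher values in 3 (3.24% and 3.67% of all genes). This comparison and those of WT after SCI share the same WT sham libraries, so they are not independent. Without overlap, 12 members were lower (7.45%, against 3.85% of all genes) and 0 higher (against 4.02%). The median difference was -0.27 over the members and 0.04 over all genes. Differences were negative for 11 of 13 class I genes, 8 of 9 class II genes, 6 of 7 IRF genes, 14 of 25 interferon-induced genes, 11 of 19 chemokines, 5 of 7 chemokine receptors, 20 of 33 interleukin genes, 14 of 22 TNF genes, 6 of 9 NF-κB genes and 5 of 8 Toll-like receptors. They were positive for 3 of 3 IRF-binding proteins, 2 of 4 interferon receptor genes and 1 of 2 other H2 symbols, and for 51.8% of all genes. Of the 19 microglial markers 18 had negative differences, their mean ranging from 2.43 to 2.68 in REST cKO sham, below the range of WT sham. All 11 neuronal, all 6 astrocyte and 10 of 12 endothelial markers had positive ones. The cells had been gated on GFP or tdTomato driven by neuronal viruses, and whether the microglial transcripts came from sorted cells or from carried-over RNA was not tested. In bulk samples, fewer cells of a type and less RNA per cell cannot be told apart. With the microglial term the median difference was 0.04 over the members and 0.01 over all genes. In that fit 3 members were higher and 4 lower at an unadjusted p-value under 0.05, against 4.8% of all genes in either direction. Here too the marker mean did not overlap between the groups, so the term and the genotype cannot be told apart in this fit.

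*Ifi207* had the smallest p-value of all members in this comparison, in all 3 REST cKO injury comparisons and in the test across the 8 groups. It lies on chromosome 1 (173723427 to 173741747, minus strand, GRCm38). In REST cKO sham it was -0.59, -0.97 and -0.57, and in WT sham 2.40, 1.74, 1.07 and 2.33. No library of the other 7 groups was as low as these 3, except the -0.64 of WT day 1 replicate 8. The difference was -2.82 (standard error 0.644, unadjusted p = 0.000182, adjusted p = 0.161), and the adjusted p-value lay between 0.107 and 0.983 over the alternatives. It was -2.67 within batch 1 and -2.67 within batch 2, each with 1 REST cKO and 2 WT libraries. All 3 REST cKO sham libraries are labelled male, and the male WT sham libraries had 2.40 and 2.33. With the microglial term it was -1.72 (standard error 0.888, adjusted p = 0.983). *Irf5*, a factor that drives inflammatory cytokines in microglia and macrophages (chromosome 6, 29526625 to 29541871, plus strand), was -0.15, -0.09 and 1.46 in REST cKO sham and 2.16, 2.04, 1.27 and 2.67 in WT sham. Here 1 REST cKO library lay within the WT range (difference -2.01, standard error 0.624, adjusted p = 0.496), and the difference was -0.88 with the microglial term and -2.25 and -2.06 within batches 1 and 2. *H2-Aa* (chromosome 17, 34282744 to 34287823, minus strand) was 3.04, 3.09 and 2.92 in REST cKO sham and 3.66, 3.51, 3.29 and 3.17 in WT sham. Its libraries did not overlap, and the difference was -0.52 (standard error 0.185, adjusted p = 0.562), or -0.60 with the microglial term. Within batches 1 and 2 it was -0.55 and -0.14. *Tnfrsf13c* was -0.73, -1.17 and -1.84 in REST cKO sham, below all WT sham libraries (difference -3.34, standard error 1.26), and its difference was -2.30 with the microglial term. *Ccl22* had a difference of -3.06 (standard error 1.19), but its direction did not hold within batches, with -4.66 in batch 1 and 0.32 in batch 2, and it was -1.01 with the microglial term.

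**Figure D4:**
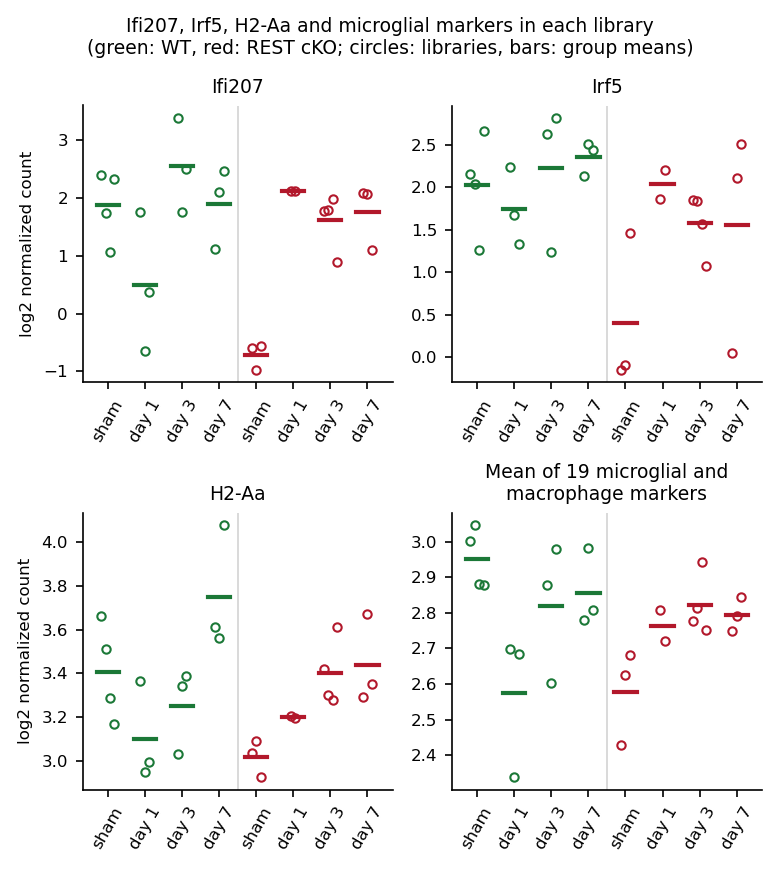
Log2 normalized counts (y axes, a separate range for each panel) of *Ifi207*, *Irf5* and *H2-Aa*, and the mean of 19 microglial and macrophage markers, in the 8 groups (x axis). Circles are libraries, green for WT and red for REST cKO, and bars are group means. The 3 REST cKO sham libraries lie between -0.97 and -0.57 for *Ifi207*, below all WT sham libraries, and their microglial marker mean lies between 2.43 and 2.68, also below WT sham.

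The promoters of these 3 genes and of *B2m*, the most abundant member, are shown because they hold or lack matches to elements through which interferons act. They are RefSeq windows of 300 bases on GRCm38.p6, from 250 before to 50 after the annotated start, 5′ to 3′ on the strand of the gene, with motif matches on either strand in capitals.
Ifi207 (chr1:173741760-173742059, minus strand): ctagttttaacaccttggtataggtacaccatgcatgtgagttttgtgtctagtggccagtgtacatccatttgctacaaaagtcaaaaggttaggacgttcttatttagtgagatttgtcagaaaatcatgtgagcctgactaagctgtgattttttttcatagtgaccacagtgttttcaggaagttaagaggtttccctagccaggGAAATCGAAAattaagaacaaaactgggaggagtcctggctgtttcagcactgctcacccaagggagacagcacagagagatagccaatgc
Irf5 (chr6:29526375-29526674, plus strand): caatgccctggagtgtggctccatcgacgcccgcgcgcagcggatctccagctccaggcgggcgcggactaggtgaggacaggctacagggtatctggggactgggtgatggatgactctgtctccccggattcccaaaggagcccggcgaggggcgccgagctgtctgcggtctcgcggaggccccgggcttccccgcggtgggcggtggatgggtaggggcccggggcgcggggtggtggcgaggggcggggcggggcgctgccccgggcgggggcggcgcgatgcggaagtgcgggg
H2-Aa (chr17:34287774-34288073, minus strand): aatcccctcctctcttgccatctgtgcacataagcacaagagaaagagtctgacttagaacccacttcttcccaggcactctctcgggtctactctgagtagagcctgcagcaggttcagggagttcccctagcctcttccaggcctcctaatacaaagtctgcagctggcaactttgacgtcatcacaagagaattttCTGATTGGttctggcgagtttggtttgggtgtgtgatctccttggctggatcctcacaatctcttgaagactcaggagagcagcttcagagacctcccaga
B2m (chr2:122147437-122147736, plus strand): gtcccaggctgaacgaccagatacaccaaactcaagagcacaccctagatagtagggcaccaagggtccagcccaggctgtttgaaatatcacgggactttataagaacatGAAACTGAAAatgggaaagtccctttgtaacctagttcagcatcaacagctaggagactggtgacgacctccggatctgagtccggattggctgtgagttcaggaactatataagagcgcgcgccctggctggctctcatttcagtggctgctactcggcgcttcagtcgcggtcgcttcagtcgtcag
The capitals mark GAAANNGAAA, the core of the interferon-stimulated response element to which IRF and STAT complexes bind, in *Ifi207* (from position -41 relative to the start) and in *B2m* (from -139). In *H2-Aa* they mark CTGATTGG, the Y box of MHC promoters, from -51. A gamma-activated site (TTCNNNGAA) and the parts TTCAGCACC and GGACAGC of the RE1 element that REST binds were not among the letters of these 4 windows. Of the 161 members 128 had a window. The response element core was in 24 of them (18.8%) and in 3.44% of all 32851 windows, the gamma-activated site in 24 (18.8%) and 8.3%, and the Y box in 12 (9.38%) and 4.1%. The RE1 parts were in 1 (0.781%) and 9 (7.03%) of the members and in 0.371% and 6.56% of all windows. Among the 7748 windows of genes measured here the shares were 4.1% for the core, 8.16% for the gamma-activated site, 6.31% for the Y box, and 0.465% and 9.11% for the RE1 parts. The core was in 8 of 9 PYHIN genes with a window, and the Y box in 8 of 18 H2 genes. A match describes the letters only and is no evidence of binding. The search took these letters without mismatches, so the lack of a match does not show that an element is absent.

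After SCI in REST cKO neurons, *Ifi207* was higher than in REST cKO sham at each day, and these 3 comparisons share the same 3 sham libraries. It was 2.13 and 2.12 at day 1, 1.79, 1.80, 1.99 and 0.89 at day 3 and 2.08, 2.07 and 1.11 at day 7, without overlap with sham. The differences were 2.83, 2.51 and 2.52, with standard errors of 0.656, 0.617 and 0.638 and adjusted p-values of 0.524, 0.338 and 0.418. With the microglial term they were 2.37, 1.76 and 1.93. The injured REST cKO libraries lay within the range of WT sham at day 7 and, apart from the 0.89 at day 3, at days 1 and 3. *Irf5* had differences of 1.69, 1.50 and 1.40 (standard errors 0.635, 0.597 and 0.618), and its libraries overlapped with sham at days 3 and 7. With the microglial term the differences at days 1 and 3 were 1.21 and 0.73, and within batch 3, with 1 library of each group, the day 3 difference was -0.38. *H2-Aa* was 3.20 and 3.19 at day 1, 3.42, 3.30, 3.28 and 3.61 at day 3 and 3.29, 3.67 and 3.35 at day 7. These libraries all lay above the 3 sham libraries, those of day 1 the nearest to them. The differences at days 3 and 7 were 0.49 and 0.48, with standard errors of 0.177 and 0.183 and adjusted p-values of 0.905 and 0.840. Within batches they were 0.20 to 0.69 and 0.25 to 0.58, and with the microglial term 0.55 and 0.52. At day 1, *H2-Oa*, which restrains class II peptide loading, was -2.06 and -2.15 in REST cKO and 0.09, 1.46 and 0.99 in sham (difference -2.80, standard error 1.04, adjusted p = 0.886). *Tlr3*, the receptor for double-stranded RNA, was 1.49, 2.53 and 1.98 at day 7 and -1.09, -0.32 and -0.22 in sham (difference 3.11, standard error 1.12, adjusted p = 0.840). Its values correlate with a sequencing component by 0.0399. The differences of *H2-Oa* and *Tlr3* were -2.78 and 3.91 with the microglial term.

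Over all members, 8 were higher and 1 lower at REST cKO day 1 (4.27% and 1.02% of all genes), 8 and 2 at day 3 (2.92% and 1.73%), and 7 and 4 at day 7 (3.54% and 2.12%). The median differences were 0.22, 0.23 and 0.15 over the members and 0.29, 0.03 and 0.07 over all genes. The shares of members called were thus near those of all genes. The microglial marker mean was 2.72 to 2.81, 2.75 to 2.94 and 2.75 to 2.84 at days 1, 3 and 7, above the REST cKO sham range at each day. Neuronal markers had negative differences in 9, 11 and 9 of 11 at these days, and at day 1 all 9 oligodendrocyte and all 9 measured blood leukocyte markers had positive ones. The part of the microglial markers in the members' differences was not tested. The marker mean did not overlap between sham and any injured group, so the fit with the microglial term cannot tell the term and injury apart. In that fit the medians were 0.20, 0.02 and 0.01.

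**Figure D5:**
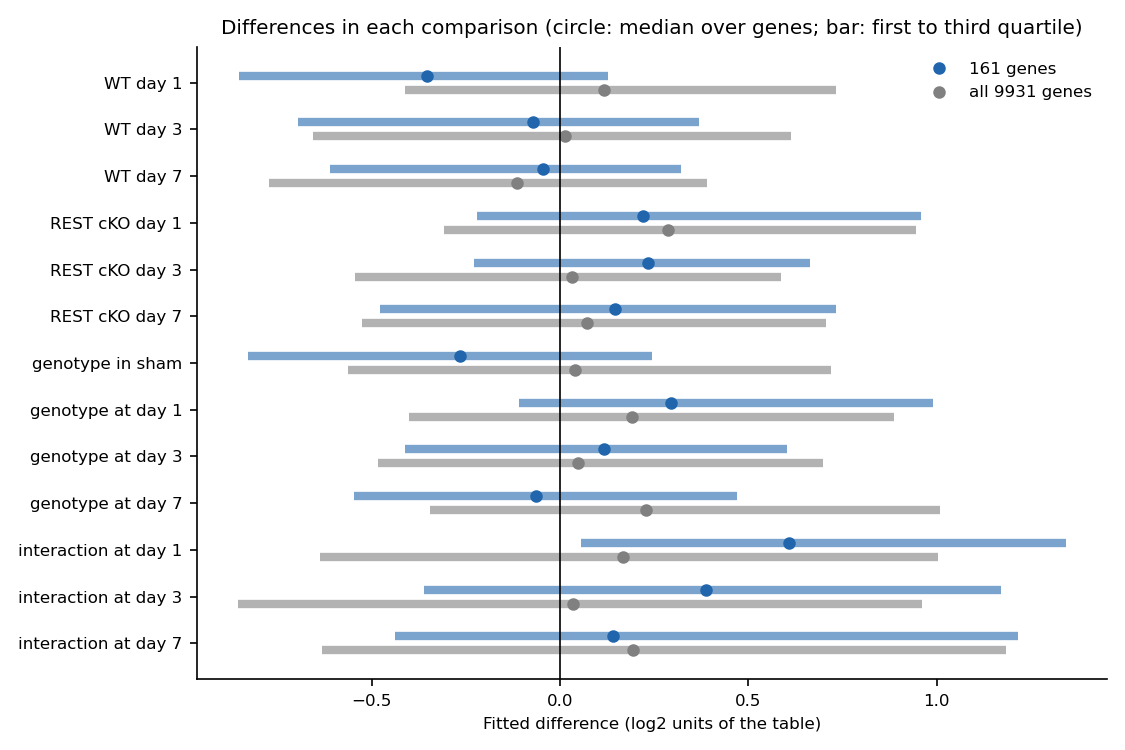
Fitted differences (x axis, log2 units of the table) in 13 comparisons (rows). Circles are medians over genes and bars run from the first to the third quartile, blue for the 161 genes and grey for all 9931 genes. The members' median lies below that of all genes at WT day 1 (-0.35 against 0.12) and between genotypes in sham (-0.27 against 0.04), and above it in the interaction at day 1 (0.61 against 0.17). These comparisons all use the same WT sham libraries.

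The genotypes were next compared at each day after SCI. At day 1, 5 members were higher and 2 lower in REST cKO (2.81% and 0.997% of all genes). *H2-Oa* was 1.83, -0.09 and 1.31 in WT, above both REST cKO libraries (difference -4.01, standard error 1.20, adjusted p = 0.999). *Il1rapl1*, which encodes a synaptic adhesion protein of the interleukin-1 receptor family, was 0.17 and 1.45 in REST cKO and -2.45, -3.96 and -0.15 in WT (difference 4.33, standard error 1.48, adjusted p = 0.999). Within batch 2, the only one with libraries of both genotypes at day 1, the difference was 0.32. *Ifi204*, a PYHIN gene, was 3.49 and 1.81 in REST cKO and 0.43, 0.94 and 1.95 in WT, with overlap (difference 1.94, standard error 0.735). It was 0.79 without REST cKO day 1 replicate 19. Only 2 REST cKO libraries stand behind these values.

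At day 3, 5 members were higher and 8 lower in REST cKO (3.81% and 2.57% of all genes). *Tlr6* was -1.28, -0.20, -1.96 and -2.28 in REST cKO, below all 3 WT libraries (difference -3.79, standard error 1.12, adjusted p = 0.650). *Cxcr4* was 1.34, 0.55, 0.48 and -0.78 in REST cKO, above all 3 WT libraries (difference 3.80, standard error 1.24, adjusted p = 0.650). *Il18* was 0.64, 0.35, 0.15 and 0.60 in REST cKO, below all 3 WT libraries (difference -2.18, standard error 0.878). These 3 genes were also among those with the smallest p-values at WT day 3, and both comparisons share the WT day 3 libraries. *Il2rg*, the common γ chain of several interleukin receptors, was 1.58, 1.20, 1.02 and 1.73 in REST cKO and 2.11, 2.98 and 2.90 in WT (difference -1.42, standard error 0.501, adjusted p = 0.650). *Tlr12*, which senses profilin of parasites, was 1.61, 2.53, 1.27 and 1.33 in REST cKO and -1.95, 0.92 and -0.64 in WT (difference 2.40, standard error 0.885, adjusted p = 0.680). Within the 3 batches the differences ranged from -1.87 to -0.53 for *Il2rg*, from 0.98 to 3.56 for *Tlr12* and from 1.47 to 4.18 for *Cxcr4*. The lowest of these WT values is that of replicate 5, the library with the largest share of low values.

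At day 7, 5 members were higher and 10 lower in REST cKO, at 7.73% and 2.22% of all genes, and the median difference was -0.06 over the members and 0.23 over all genes. Of the 19 microglial markers 14 had negative differences, and 10 of 11 neuronal and 6 of 6 astrocyte markers had positive ones. With the microglial term 6 members were higher and 9 lower, against 9.19% of all genes in either direction, with a median of -0.02 over the members and 0.22 over all genes. *Tlr3* was 0.07, -3.50 and -1.08 in WT, below all REST cKO libraries (difference 3.86, standard error 1.05, adjusted p = 0.218). *Il11*, a cytokine of the interleukin-6 family, was -3.22, -3.27 and -1.48 in REST cKO and -0.87, 1.29 and 0.32 in WT (difference -3.15, standard error 1.05, adjusted p = 0.284). *Il2ra*, the interleukin-2 receptor α chain, was 2.22, 1.20 and 0.62 in REST cKO and -3.34, -0.78 and -1.70 in WT (difference 3.55, standard error 1.33, adjusted p = 0.348). *H2-T10* was 0.46, 0.08 and 1.29 in REST cKO, above the WT libraries (difference 2.50, standard error 0.935). *H2-Ke6*, which lies in the H2 complex but encodes a fatty acid and steroid dehydrogenase, was -2.69, -1.67 and -1.54 in REST cKO and 1.06, 1.52 and 1.65 in WT (difference -3.47, standard error 1.13, adjusted p = 0.269). In each of these 5 genes, which were chosen by p-value, the groups did not overlap. The share of all genes without overlap was not counted at this day. All 3 REST cKO libraries at day 7 are labelled male and all 3 WT libraries female, so sex and genotype cannot be told apart at this day.

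The interaction compares the response to SCI between the genotypes. At day 1, 15 members had a higher response in REST cKO than in WT at an unadjusted p-value under 0.05 and 0 a lower one (3.58% and 2.19% of all genes). The median was 0.61 over the members and 0.17 over all genes, and 123 members were positive (76.4%, against 56.2% of all genes). It is built from the WT day 1 and sham libraries described above and repeats their differences. *Ifi207* led with an interaction of 4.37 (standard error 0.862, unadjusted p = 2.96e-05, adjusted p = 0.147), as it was lower after SCI in WT and higher in REST cKO. Its adjusted p-value was 0.0549 without WT day 1 replicate 1, the highest library of that group, and 0.0341 without REST cKO day 3 replicate 27. In all other refits without 1 library it did not pass 0.1. With the microglial term its day 1 differences were -0.49 in WT and 2.37 in REST cKO, against -1.54 and 2.83 without that term. *Irf5* had 1.94 (standard error 0.835) and *H2-Aa* 0.53 (standard error 0.247), with adjusted p-values of 0.812 and 0.832. With the microglial term the members' median was 0.33 and that of all genes 0.23. In that fit 2 members were higher and 1 lower at an unadjusted p-value under 0.05, against 4.09% of all genes in either direction. The term cannot be told apart from these groups, as described above. At day 3, 5 members were higher and 2 lower (2.89% and 2.26% of all genes), and at day 7, 8 and 4 (4.3% and 2.05%). The medians at days 3 and 7 were 0.39 and 0.14 over the members and 0.03 and 0.19 over all genes. At day 3, 65.2% of the members were positive, against 51.2% of all genes, and at day 7 56.5% of both.

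Genes of the same pathways outside the symbol rule were taken from lists, and 0 of them passed the threshold in any comparison. Of 34 interferon-stimulated genes that the rule does not hold, 26 had negative differences at WT day 1, with a median of -0.37, and 5 were lower and 1 higher at an unadjusted p-value under 0.05 (2.52% and 3.92% of all genes). In REST cKO sham against WT sham 25 of the 34 were negative, with a median of -0.48, and at an unadjusted p-value under 0.05 there were 0. The WT sham libraries are the same in both of these comparisons. In REST cKO after SCI, 26 of 34 were positive at each of days 1 and 3, with medians of 0.37 and 0.37, and 20 of 34 at day 7, with a median of 0.13. Of all genes 63%, 51.6% and 53.5% were positive at these days. Of 16 antigen processing genes, the proteasome, transporter and loading factors of class I among them, 10 were negative at WT day 1 and 10 between genotypes in sham. In sham 4 of them were lower at an unadjusted p-value under 0.05 (3.24% of all genes). Of 10 genes of the interferon signalling chain, 8 were negative at WT day 1, and 2 of them were lower at an unadjusted p-value under 0.05, as were 2.52% of all genes. Of 18 adaptors and kinases of pathogen sensing and NF-κB signalling, 14, 15 and 14 were negative at WT days 1, 3 and 7, with medians of -0.63, -0.95 and -0.59, and 2, 3 and 1 were lower at an unadjusted p-value under 0.05 (2.52%, 3.26% and 4.72% of all genes). In REST cKO 8, 10 and 11 of these 18 were negative at days 1, 3 and 7.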

How the data were processed

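The analysis used RNA-seq values of 25 libraries of sorted cortical neurons, grouped by the sample labels. The authors deposited log2 normalized counts per gene, made by alignment to mm10 with STAR, quantification with Salmon, scaling with DESeq2 and removal of unwanted variation, after which genes without counts in most samples were dropped and 2 sequencing components regressed out. The same table holds the authors' own fold changes and p-values, which were not used. Of 9955 rows, 24 (0.241%) without a symbol were left out. The depth of single libraries cannot be read from the table, which holds normalized values alone, and errors come from replicates alone. The labels give each library a sex and a batch but name no mouse, and the study describes its replicates as mice, so p-values measure the spread between libraries.

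A linear model was fitted to every gene (limma 3.58.1, R 4.3.3), with a mean for each of 8 groups and the 2 components, a mean-variance trend, Benjamini-Hochberg adjustment over 9931 genes and a threshold of 0.1. The fit was tested on simulated data. The genes and lists were chosen with earlier results of these data known. Genes were named if they passed in any of 14 tests, if they had the 5 smallest p-values of the members (3 for the REST cKO days and genotype at day 1), or if they were the 2 highest of their class. *H2-D1*, *H2-Eb1*, *Cd74*, *Cxcl10* and *Ifnar1* were added after their values were seen. Some results are not reported here. Of the members 7 (4.35%), and of all genes 140 (1.41%), correlate with a component by more than 1e-05. Positions are from GENCODE M21 (GRCm38), with 161 of 161 members found by identifier. Alternatives were no components, only the groups compared, terms for batch, sex or the share of values under -2, library weights, genes with a mean of at least 0, no trend, quantile normalization, a threshold of 0.05 and leaving out each library.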

Additional observations from a re-analysis of the deposited data

Results flagged for a closer look

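Among 102 groups of 4 libraries of the named genes, 2 held a library far from the other 3, where chance gives about 1 in 20. *B2m* was 4.26 in REST cKO day 3 replicate 15 and 3.93 to 3.96 in the others, a gap of 0.89 of the range. *Il11* was -3.15 in REST cKO day 3 replicate 9 and -0.83 to -0.36 in the others, a gap of 0.833 of the range.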

How the results depend on the processing

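The count of members past the threshold was 0 in all 14 tests, and 347 of 350 refits without 1 library and 150 of 153 other refits gave 0 as well. For the interaction at day 1 the count was 1 with library weights, 1 with quantile normalization and 1 with a term for the share of low values, and from 0 to 1 without 1 library. For the test across the 8 groups it was 0 to 1 without 1 library. The member was *Ifi207* each time, with adjusted p-values of 0.0426, 0.0816 and 0.0940 in the 3 fits and 0.0876 in the test across the groups without REST cKO day 3 replicate 27. The cause was not tested. No value of a named gene changed direction in 1050 refits without 1 library or in 445 others. These values were chosen for small p-values in the same libraries, so a change of direction was unlikely from the start. Within single batches *Ccl22* (genotype in sham, batch 2) and *Irf5* (REST cKO day 3, batch 3) did change direction. No paired analysis was possible because the groups share no replicate numbers. Without the depth of single libraries, no counting error could be given for members with a mean below 0.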
